A study of Mus musculus with 2 samples.

Results

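The genes described here encode the enzymes that write and erase methylation on cytosines of DNA, 9 genes of the 14261 rows in the deposited expression table. The rule that picked them uses gene names and no measured value. The writers are Dnmt1, Uhrf1, Dnmt3a, Dnmt3b and Dnmt3l, and the erasers are Tet1, Tet2, Tet3 and Tdg. Each of the 9 symbols stood on 1 row. RNA-seq libraries were made from 2 cultures of TRE-ESCs, which are mouse embryonic stem (ES) cells, held in suspension in low adsorption dishes in N2B27 medium with LIF and 2i, a pair of kinase inhibitors. One culture had no added agent and the other had doxycycline (dox), the usual inducer of tetracycline-controlled transgenes, and both were labelled 36 h. The titles are TRE-suspend-36h and TRE-suspend-adox-36h, and the second was taken as the dox culture from its agent label, since the labels do not explain adox. The title of the series speaks of resistance of such cells to c-Jun-driven differentiation while in suspension. The labels used here do not describe the transgene or the number of clones. A culture given dox without a transgene was not analysed here, so drug and transgene cannot be told apart. Each group had 1 library and thus no replicates, so differences were not tested and no value has an error between cultures.

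In mammals DNMT3A and DNMT3B place new methyl groups on CpG sites, with the inactive relative DNMT3L as their stimulating partner, whereas DNMT1, guided by UHRF1, copies the pattern to the new strand after replication. TET1, TET2 and TET3 oxidise 5-methylcytosine, and the glycosylase TDG cuts out the most oxidised forms, which base excision repair replaces with plain cytosine. ES cells in 2i and LIF are known for low DNA methylation and for TET1 and TET2 as their main TET enzymes, while TET3 is known from the oocyte, the early embryo and differentiating cells. DNA methylation itself was not measured in these samples.

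The stretches before annotated start sites of the Tet genes are shown because the results below turn on these genes. No result below uses the stretches. Each is the longest part of the 250 bases before the start site in RefSeq (build GRCm38.p6) that lies in no annotated exon of the gene itself, read on the minus strand of each gene, with CpG sites, the substrate of the enzymes, in capitals.
Tet1, chr10:62887325-62887412: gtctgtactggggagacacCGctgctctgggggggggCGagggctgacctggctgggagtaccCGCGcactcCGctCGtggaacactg
Tet2, chr3:133544391-133544640: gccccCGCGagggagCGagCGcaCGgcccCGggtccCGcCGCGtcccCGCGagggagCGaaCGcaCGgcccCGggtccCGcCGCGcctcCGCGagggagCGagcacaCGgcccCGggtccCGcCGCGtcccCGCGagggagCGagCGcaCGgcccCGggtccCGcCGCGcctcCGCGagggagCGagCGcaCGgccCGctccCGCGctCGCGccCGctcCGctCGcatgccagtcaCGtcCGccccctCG
Tet3, chr6:83441679-83441928: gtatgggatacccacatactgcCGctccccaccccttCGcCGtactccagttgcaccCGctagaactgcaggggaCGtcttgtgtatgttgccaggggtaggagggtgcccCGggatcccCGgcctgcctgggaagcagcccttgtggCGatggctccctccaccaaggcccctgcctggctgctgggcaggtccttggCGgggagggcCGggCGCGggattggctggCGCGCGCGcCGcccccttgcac
The Tet2 stretch held 51 CpG sites in 250 bases and the Tet3 stretch 17, and the whole Tet1 window of 250 bases held 15. The median over 32851 such windows was 6, with an upper quartile of 16. Of the Tet3 stretch 174 bases lie in exons of B230319C09Rik, a transcript on the opposite strand. The windows lie inside the gene spans given below, so other annotated starts lie upstream of them. Which start site these cells used was not measured.

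All 9 members matched this promoter table, with 16 windows in all, some of which overlap each other. The AP-1 site TGAGTCA, a motif known to be bound by c-Jun with FOS proteins, was sought as an exact match on both strands, and so was the CRE site TGACGTCA, a palindrome bound by c-Jun with ATF proteins. The AP-1 letters stood in 0 of the 16 windows, against 4.46% of all windows. The CRE letters stood in 1 of the 16, against 1.55% of all windows. That window was the one before Tdg, and the match, in capitals, began 135 bases before the start site on the plus strand.
Tdg, chr10:82629677-82629736: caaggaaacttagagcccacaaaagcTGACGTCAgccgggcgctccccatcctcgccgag
A match is a description of these letters and does not show binding.

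The deposited values are whole numbers on a normalized count scale, on which both libraries shared the quartiles 14, 62 and 184. A value therefore reflects the place of a gene within its library, and sequencing depth is unknown for each. As a check of the labels, Jun was listed at 55 without and 3821 with dox. ES cell markers were present in both libraries (10 of 10 at or above a value of 50 in at least 1 library). Of them 7 were at least 2-fold lower with dox, against 5.49% of all genes at or above 50 in at least 1 library. Pou5f1, which encodes OCT4, stood at 3230 and 3572. Of 11 fibroblast or feeder markers 0 reached 50, their summed value was 33 without dox and 81 with dox, and Dcn, Lum and Fap were listed at 0 in both. Of 8 trophectoderm markers 7 were in the table and summed to 224 and 585, of which Krt7 gave 0 and 374, while Tfap2c stood at 159 and 113. Of 8 primitive endoderm markers 5 were in the table and summed to 36 and 532, of which the collagen gene Col4a1 gave 12 and 507, while Gata4 stood at 4 and 7 and Gata6 at 4 and 8. For 4 of 6 neuroectoderm markers the sums were 363 and 284, but Nes was higher with dox, at 55 and 151, and Tubb3 lower, at 302 and 127. Sox1 stood at 4 and 2 and Pax6 at 2 and 4. For 3 of 6 mesoderm markers the sums were 167 and 28. The part of such markers in the values below was not tested.

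Among the members, Tet3 was far higher with dox and Dnmt3a was modestly higher, Tet1 and Tet2 were lower, and Dnmt1, Dnmt3b, Uhrf1 and Tdg were within 2-fold. A pseudocount of 10 was added to both values before each log2 ratio of dox over no dox was taken, which understates the difference of low values. Genes whose larger value was at least 50, the floor, were counted, which took in 8 of the 9 members and 8547 genes of the table. Of the 8 members 2 were higher with dox by 2-fold or more and 2 were lower by as much. Among all 8547 genes 9.23% were that much higher and 5.49% that much lower, so that 14.7% passed in either direction. With so few members these shares are a description only. In bulk RNA, fewer cells of a type and less RNA per cell cannot be told apart.

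**Figure D1:**
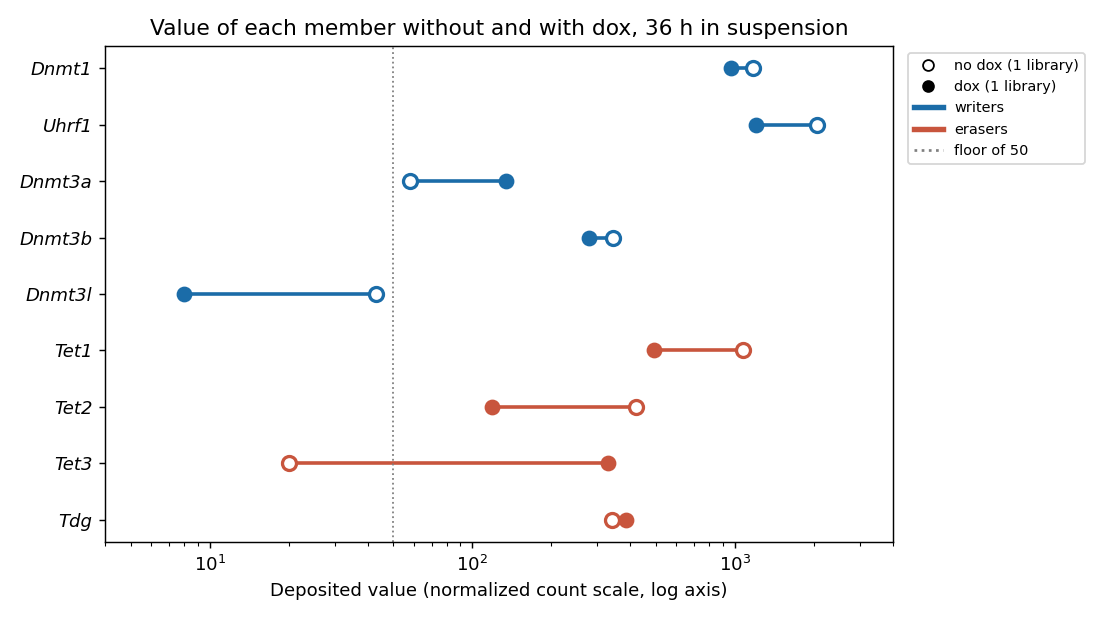
Deposited value (log axis, normalized count scale) of each of the 9 members in the library without dox (open circles) and with dox (filled circles), 1 library each, with writers in blue, erasers in red and the floor of 50 dotted. The line of Tet3 runs from 20 up to 328, against the lines of Tet1 and Tet2, which run down from 1072 to 494 and from 419 to 119.

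Tet1, the TET enzyme best known from ES cells, was listed at 1072 without and 494 with dox, a log2 ratio of −1.10. By value it ranked 373 of 14261 rows without dox and 1159 with dox. Tet1 lies on chromosome 10, minus strand, between 62804570 and 62908996 in GENCODE M21 on GRCm38, the assembly of mm10.

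Tet2, which lacks the CXXC DNA-binding domain of its relatives, was listed at 419 without and 119 with dox, a log2 ratio of −1.73 and the lowest among the members at or above the floor. It ranked 90 from the lowest ratio among the 8547 genes. Its rank by value went from 1429 to 4978. Tet2 lies on chromosome 3, minus strand, between 133463679 and 133545139.

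Tet3, the TET enzyme of the zygote, was listed at 20 without and 328 with dox. The direction was thus opposite to that of Tet1 and Tet2. The value with dox was 16.4 times that without, and with the pseudocount 11.3-fold higher, a log2 ratio of 3.49. It ranked 65 from the highest ratio among the 8547 genes, and its percentile by value within the library went from 29.7 to 86.4. Tet3 lies on chromosome 6, minus strand, between 83362373 and 83459084. Its size rests on a low starting value, and with a pseudocount of 50 the log2 ratio was 2.43.

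Tdg, the glycosylase that acts after the TET enzymes, was listed at 342 without and 386 with dox, a log2 ratio of 0.17. Its value was thus nearly level while each Tet gene was beyond 2-fold. Tdg lies on chromosome 10, plus strand, between 82629828 and 82650799. The processed pseudogene Tdg-ps shares 2968 bases with the longest Tdg transcript at 98.7% identity. The processed pseudogenes Gm5597 and Gm9855 share 1193 and 1194 bases at 99.3% and 99.2%, and AC122846.1 shares 203 bases at 99.0%. Glt8d2, which overlaps Tdg and was listed at 1 without and 0 with dox, shares 367 bases at 100%. Reads of these loci may thus be hard to separate, and none of the pseudogenes was a row of the table.

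**Figure D2:**
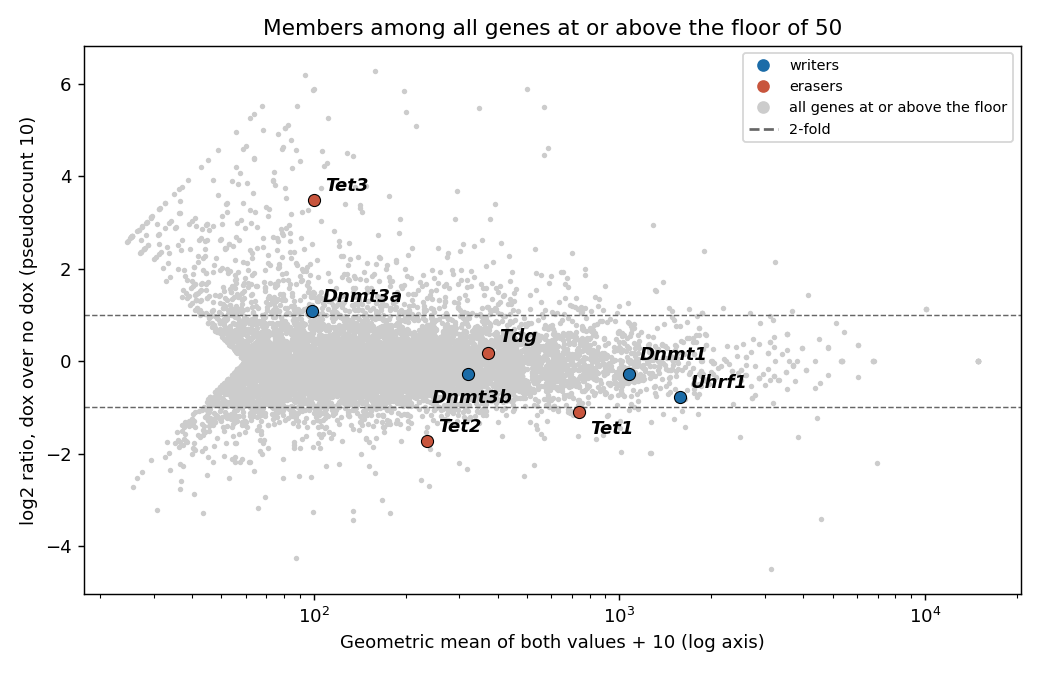
Log2 ratio of dox over no dox against the geometric mean of both values (each plus 10, log axis) for the 8547 genes at or above the floor (grey), with the 8 members among them in blue (writers) and red (erasers) and dashed lines at 2-fold. Tet3 at 3.49 stands far above the bulk of genes, Tet1 and Tet2 lie below the lower line, and Dnmt3a at 1.08 lies just above the upper one.

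The make-up of the Tet RNA therefore differed between the libraries more than its sum did. The 3 values summed to 1511 without dox and 941 with dox, 1.61-fold lower. Levels of the Tet genes were compared per kb of the longest annotated transcript, which is 14.4 kb for Tet1, 9.18 kb for Tet2 and 10.9 kb for Tet3. On that scale Tet1 stood at 74.6 per kb, Tet2 at 45.6 and Tet3 at 1.83 without dox. With dox Tet1 stood at 34.4 per kb, Tet3 at 30.1 and Tet2 at 13.0. The Tet sum per kb was 122.1 without dox and 77.4 with dox. Tet3 made up 38.9% of it with dox, while Tet2 went from 37.4% to 16.7% and Tet1 from 61.1% to 44.4%. The order without dox was Tet1, Tet2, Tet3, and with dox it was Tet1, Tet3, Tet2, the same orders as in the values not divided by length. Tet1 was 40.7 times Tet3 per kb without dox and 1.14 times with dox. Whether the deposited values already account for length is not given in the sources used here. Across 8472 genes, which are not independent replicates, their Spearman rho with transcript length was 0.01 without dox and 0.14 with dox.

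Among the writers, the maintenance genes had the highest levels per kb. Uhrf1, which brings DNMT1 to half-methylated CpG sites, was listed at 2057 without and 1204 with dox, a log2 ratio of −0.77. Dnmt1, the maintenance methyltransferase, stood at 1174 and 964, a log2 ratio of −0.28. Both were lower with dox and both within 2-fold. Per kb, Uhrf1 was 2.87 times Dnmt1 without dox and 2.04 times with dox. Uhrf1 lies on chromosome 17, plus strand, between 56303321 and 56323486, and Dnmt1 on chromosome 9, minus strand, between 20907209 and 20959888. The processed pseudogene Gm5648, not a row of the table, shares 1590 bases with Uhrf1 at 98.3% identity.

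Both maintenance genes are known to be most active in S phase, and a list of other S-phase genes was therefore set beside them. Of 29 such genes 29 reached the floor, 0 were higher with dox by 2-fold or more and 2 were lower by as much. The shares over all 8547 genes were 9.23% and 5.49%. Of the 29, 27 had a ratio below 0, against 4690 of all 8547 genes at or above the floor. The median log2 ratio of the 29 was −0.53, against −0.08 over all 8547 genes. The ratio of Dnmt1 lay above that median and the ratio of Uhrf1 below it. The replicative helicase gene Mcm7 was listed at 2056 without and 921 with dox, and the licensing gene Cdc6 at 261 and 102. The sliding clamp gene Pcna, whose protein holds DNMT1 at the replication fork and which is named outside the rule, stood at 1339 and 1011. Of the other genes Mcm5 had the largest value and stood at 2326 and 1417.

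Dnmt3a was listed at 58 without and 134 with dox, a log2 ratio of 1.08. Dnmt3b stood at 343 and 279, a log2 ratio of −0.29. Dnmt3l, the catalytically inactive partner, stood at 43 and 8, under the floor in both libraries, and was therefore not counted, and its log2 ratio of −1.56 became −0.68 with a pseudocount of 50. So 1 member of the family was higher with dox, 1 was nearly level and 1 had low values that were smaller with dox. The call of Dnmt3a was marginal, since its log2 ratio was 0.77 with a pseudocount of 50 and 0.87 with the trend on transcript length removed, both under 2-fold.

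Per kb Dnmt3b was the most abundant of the 3 in both libraries, at 79.4 without dox and 64.6 with dox. Dnmt3l came next without dox, at 23.6 per kb against 5.99 for Dnmt3a, and last with dox, at 4.39 against 13.8. In the values not divided by length Dnmt3l, at 43 and 8, was below Dnmt3a, at 58 and 134, in both libraries. Dnmt3b was 13.3 times Dnmt3a per kb without dox and 4.67 times with dox. The values of Dnmt3a and Dnmt3b, the 2 active enzymes, summed to 401 without dox and 413 with dox, while per kb their sum was 85.4 without and 78.4 with dox. Dnmt3a lies on chromosome 12 from 3806007 to 3914443, Dnmt3b on chromosome 2 from 153649450 to 153687730 and Dnmt3l on chromosome 10 from 78041947 to 78063622, each on the plus strand. The germline methyltransferase gene Dnmt3c, not a row of the table, shares 1434 bases with Dnmt3b at 93.9% identity.

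**Figure D3:**
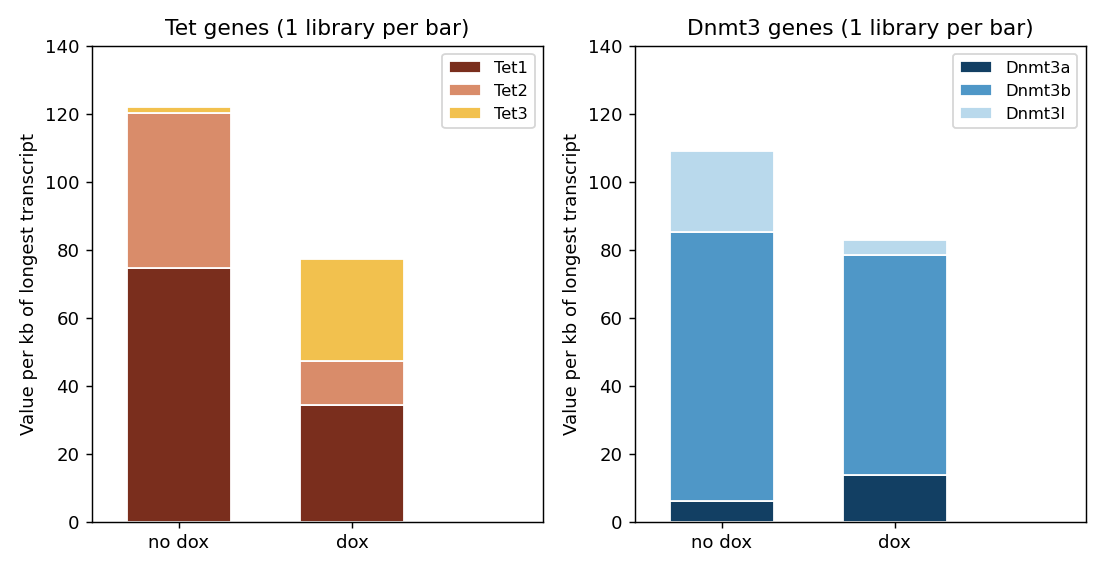
Value per kb of the longest annotated transcript, stacked for the Tet genes (left) and the Dnmt3 genes (right), in the library without dox and the one with dox. Tet3 fills 1.83 of the 122.1 units of the Tet bar without dox and 30.1 of 77.4 with dox, while Dnmt3b fills most of both Dnmt3 bars, 72.9% and 78.0%. In the values not divided by length, which are not drawn, the Dnmt3b share was 77.3% without dox and 66.3% with dox.

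Writers and erasers had medians of the same sign. The median log2 ratio was −0.29 over the 4 writers at or above the floor and −0.47 over the 4 erasers, against −0.08 over all 8547 genes. Of the 4 writers 1 was at least 2-fold higher and 0 lower, and of the 4 erasers 1 was higher and 2 lower. Among all 8547 genes 9.23% were that much higher and 5.49% that much lower, and 4 genes per side allow a description only. The 5 writer values summed to 3675 without dox and 2589 with dox, 1.42-fold lower, and the 4 eraser values to 1853 and 1327, 1.40-fold lower. The ratio of the writer sum to the eraser sum was 4.02 without dox and 3.11 with dox per kb. From the values not divided by length it was 1.98 and 1.95, so whether the balance appeared level or lower depended on the scale. Uhrf1, which is no methyltransferase itself, made up 65.0% of the writer sum per kb without dox and 57.6% with dox.

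Genes around these enzymes were taken from lists chosen by function. Among all 8547 genes, beside which the counts of each list are to be read, 9.23% were at least 2-fold higher and 5.49% lower. Within 2-fold were 85.3%. The base excision repair list had 17 genes, some that act after TDG and some, such as Ung and Nthl1, that encode other glycosylases. Of the 17 genes, 16 were in the table and 11 reached the floor. Of these 0 were at least 2-fold higher and 5 at least 2-fold lower with dox, with a median log2 ratio of −0.71. The endonuclease gene Apex1, which cuts the site left by TDG, stood at 948 and 313. The uracil glycosylase gene Ung stood at 482 and 198, and the flap endonuclease gene Fen1 at 383 and 184. Another lower gene, named outside the rule, was the glycosylase gene Nthl1, at 50 and 18. Tdg thus stood level while 10 of the 11 repair genes had a ratio below 0, against 4690 of all 8547 genes at or above the floor.

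The list of methyl-CpG readers and their relatives, not all of which bind methylated sites, had 8 of 10 genes at or above the floor. Of these 1 was at least 2-fold higher and 0 lower with dox, with a median log2 ratio of 0.37. The zinc finger gene Zbtb38 was listed at 109 without and 426 with dox. The NuRD subunit gene Mbd3, whose protein scarcely binds methylated DNA in mammals, stood at 468 and 419. Mbd6 stood at 117 and 155, and Uhrf2, the relative of Uhrf1, at 84 and 108.

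Partners and recruiters of the writers were within 2-fold about as often as all genes, 85.0% against 85.3%. Of 21 genes 20 reached the floor, 1 was at least 2-fold higher, 2 were lower and 17 within 2-fold, with a median log2 ratio of −0.14. Zfp57, a zinc finger gene that keeps imprinted methylation in ES cells, was listed at 1273 without and 408 with dox. The chromatin ATPase gene Morc3 stood at 554 and 268. The histone methyltransferase gene Suv39h1 was higher, at 45 and 184. Trim28, which joins zinc finger proteins such as ZFP57 to silencing enzymes, had the largest values, 3573 and 2864. Hells and Usp7, whose proteins assist DNA methylation and stabilise DNMT1 and UHRF1, stood at 1123 and 808 and at 1494 and 1493, and are named outside the rule for naming genes.

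Partners of the TET enzymes and enzymes that set the supply of their cofactor 2-oxoglutarate numbered 19, of which 18 were in the table and 14 reached the floor. Among these 14 genes, 1 was at least 2-fold higher, 2 were lower and 11 within 2-fold, with a median log2 ratio of −0.30. Gadd45a, a stress gene linked to active demethylation, was listed at 20 without and 181 with dox. Sall4, a pluripotency factor gene, stood at 590 and 287. The TET-binding glycosyltransferase gene Ogt stood at 935 and 1071. The methyl donor cycle list had 16 genes, of which 15 were in the table and 14 reached the floor, with 0 at least 2-fold higher, 2 lower and a median of −0.35. The 2 lower genes were Bhmt, which remethylates homocysteine, at 548 and 47, and its relative Bhmt2, at 78 and 26. Mat2a, which makes the methyl donor S-adenosylmethionine, stood at 1275 and 1047, and Amd1, which draws on that donor for polyamines, at 703 and 553.

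Regulators of the naive state, some of which are known to keep DNA methylation low, had the lowest median of these lists. All 10 reached the floor, 8 were at least 2-fold lower with dox and 0 higher, with a median of −1.53. That naive genes as a class were lower in these libraries was known when the list was made, so the count is not independent evidence. Prdm14, a repressor of the de novo methyltransferase genes in naive cells, was listed at 177 without and 50 with dox. Dppa3, whose protein displaces UHRF1 from chromatin, stood at 287 and 72, and both are named outside the rule. Of the 8 lower genes Tfcp2l1 had the largest values, 2672 and 1208, followed by Nanog at 2508 and 623. Tet1 and Tet2 were thus lower in the library in which these genes were lower, Dnmt3a was higher there, and Dnmt3b stayed within 2-fold. Tet3, at 20 without and 328 with dox, went the other way from Tet1 and Tet2. Dnmt3l, under the floor at 43 and 8, went the other way from Dnmt3a. A relation between the members and the naive-state regulators was not tested.

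Of 27 germline genes known to be silenced by promoter methylation 23 were in the table and 9 reached the floor. Of these 9, 0 were past 2-fold in either direction, with a median log2 ratio of −0.24. Since 85.3% of all 8547 genes were also within 2-fold, the 0 of 9 does not set these genes apart. Dazl, a germ cell RNA-binding protein gene, was listed at 370 without and 366 with dox. Tex19.1 stood at 215 and 153, the testis tubulin gene Tuba3a at 206 and 104 and the homeobox gene Rhox5 at 120 and 78. The other 14 genes in the table were under the floor. Among all 23, the number listed at 0 was 4 without dox and 0 with dox. Over all 14261 rows that number was also smaller with dox, 1372 without and 857 with dox. The genes under the floor went in both directions. Asz1, at 0 and 15, and Taf7l, at 10 and 32, had larger values with dox. Naa11, at 15 and 4, and Rhox9, at 19 and 6, had smaller ones, and all of these are named outside the rule.

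For each member beyond 2-fold, the genes with the most similar pair of values were found by Euclidean distance over log2(value + 10). With 2 libraries this compares 2 values only. Nearest to Tet1 were Rex2, at 1042 without and 508 with dox, and the kinase gene Sgk1, at 1087 and 517, at distances of 0.057 and 0.067. Nearest to Tet2 were the Wnt receptor gene Fzd5, at 455 and 115, and Gm37567, at 385 and 127, at distances of 0.12 and 0.15. Nearest to Tet3 were the cytokine receptor gene Tnfrsf12a, at 21 and 288, and Ndrg4, at 19 and 377, at distances of 0.19 and 0.20. Nearest to Dnmt3a were Arhgap29, at 56 and 134, and the signalling adaptor gene Traf3, at 58 and 129, at distances of 0.043 and 0.051. The nearest genes of Tet1 and Dnmt3a thus lay closer than those of Tet2 and Tet3.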

How the data were processed

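RNA from 2 cultures, 1 per group, was sequenced after TruSeq library preparation, per the labels' protocols. The tools bcl2fastq, Bowtie2 and RSEM and the build mm10 are named in the submitters' processing notes. Versions, annotation, normalization, gene filter and use of strand were not stated there. Each deposited value was treated as a score that the authors had normalized on a count scale and rounded, because both columns share their quartiles and 75.5% of their sorted values are equal (tolerance 0). No count model was used, and 0 sample columns were left unused. Log2 ratios used a pseudocount of 10, counts a floor of 50 on the larger value and a 2-fold threshold. The members and lists were chosen with earlier results of these data known. Named genes were the members, up to 4 per list (those past 2-fold with the largest values, then those with the largest values) and the 2 nearest genes to each member past 2-fold. Some genes that this rule takes are left unnamed. Of 14259 distinct symbols 14139 matched GENCODE M21. Transcripts sharing at least 200 bases at 90% identity were sought with BLAST 2.17.0. The length trend was removed with lowess (fraction 0.3). Only the log2 ratio and the 2-fold calls were tested on simulated data, which were drawn as counts. The steps were run with pandas 2.3.3, numpy 2.4.6, statsmodels 0.14.6, scipy 1.17.1 and matplotlib 3.10.9 under Python 3.11.15.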

Additional observations from a re-analysis of the deposited data

How the results depend on the processing

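A value with no test counted as moved here when its log2 ratio shifted by log2 of 1.5 (0.585) or more. The medians of writers and erasers kept their sign and stayed within that range under pseudocounts of 1 and 50, the median of all genes set to 0, equal sums, the length trend removed, no floor and a floor of 250. The count of members at least 2-fold higher, 2, was 1 with a pseudocount of 50, 1 with the length trend removed, 1 with a floor of 250 and 1 at a 4-fold threshold, and in each case Dnmt3a was the gene lost. The count at least 2-fold lower, 2, was 0 at a 4-fold threshold, 3 with no floor (with Dnmt3l) and 3 at a 1.5-fold threshold (with Uhrf1). Of 45 alternative log2 ratios of single members 42 stayed in range, 3 moved and 0 reversed sign, and the 3 were Dnmt3l at pseudocounts of 1 (−2.29) and 50 (−0.68) and Tet3 at 50 (2.43). Equal sums and the median set to 0 could hardly shift any ratio. The sums were already 2704318 without and 2709923 with dox, and the median of all genes was −0.08. The 42 thus include ratios that these settings could not have moved. The change in percentile rank within the library, chosen after seeing the data, had the sign of the log2 ratio for all 9 members. Since both libraries hold nearly the same set of values, rank and value are nearly interchangeable. The shared signs are therefore no separate check. No paired analysis was possible because each group had 1 library. Depth is unknown, so the counting error of Dnmt3l and of Tet3 without dox, the lowest values, could not be given.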

Other observations

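The Tet genes are long, and longer genes tended to have higher log2 ratios (rho 0.27 by Spearman over 8472 genes, a description only since genes are no independent replicates). Tet1 and Tet2 went against that trend. With the trend removed the log2 ratio of Tet1 went from −1.10 to −1.40 and that of Tet2 from −1.73 to −1.93, while that of Tet3 went from 3.49 to 3.26.

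The nearest listed genes on the chromosome, looked up after the members' values were seen, did not share the difference of Tet3. Bola3, 2237 bases from Tet3, was listed at 52 without and 14 with dox, and Dguok, 21133 bases away on the other side, at 50 and 17. Next to Tet1, Ccar1 stood at 615 and 656 at a distance of 12284 bases, and Slc25a16 at 44 and 38 at 11637 bases. Dnmt3l overlaps Aire at its start, and Aire was listed at 0 in both libraries. Trdmt1, which resembles the DNA methyltransferases and methylates transfer RNA, stood at 43 and 34.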
